A study of Mus musculus with 6 samples.

Results

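The genes described here are 36 genes of myelin and of the mature oligodendrocyte, taken from a fixed list of names and followed across 6 arrays of the developing mouse auditory brainstem. An array carries several sets of short probes per gene, and each gene was read from the probe set that names it alone and has the highest mean. Probe sets named _x_at, which can cross-hybridise, were used only where a gene had no other. On that rule 34 of the 36 genes had a value, out of 18193 genes on the array, and 32 of them lay above a filter on low values that left 12958 genes to test. Trf was named only on a probe set shared with another gene, and Enpp2 was not analysed here. Sp7 and Smco3 had values but lay below the filter.

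The samples came from 3 nuclei of the sound localisation pathway of male C57BL/6J mice, namely the ventral part of the cochlear nucleus (VCN) and 2 nuclei of the superior olivary complex, LSO for lateral superior olive and MNTB for the medial one in the trapezoid body. Each nucleus was measured at postnatal day 3 (P3) and at P14, with no treatment or genetic change named in the labels. Tissue was dissected with forceps from brainstem slices of 200 µm, and each array holds 1 pool, of 6 animals at P3 and of 3 at P14. There was no second array of any nucleus at any age, so the 3 nuclei served as the repeats of the age difference and the 2 ages as the repeats of a difference between nuclei. All values are log2 expression values. Because the tissue was a mixture of cells, fewer cells of a type and less RNA per cell cannot be told apart.

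Oligodendrocytes arise from dividing precursors, pass through a short premyelinating state and then wrap axons in a compacted, lipid-rich membrane that speeds conduction. Some of their genes are switched on as soon as a precursor leaves the cycle, and others only when the sheath is built. In the auditory brainstem myelin forms on thick, fast axons whose timing carries the position of a sound, and mouse hearing begins between the ages sampled here.

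Every one of the 32 tested genes rose between P3 and P14 (limma, additive in age and nucleus, adjusted p under 0.05), and none fell. Of all genes tested, 23.4% rose and 17.7% fell. The median age difference over the 34 genes with a value was 2.85 log2 units, against 0.03 over all genes tested, and it ran from 0.48 for Car2 to 6.22 for Ermn. In 33 of the 34 genes all 3 P14 arrays lay above all 3 P3 arrays, an order found in 30.3% of all genes tested, and Tppp3 was the exception. Mog and Ermn, 2 of the 32, had a P3 mean below the filter and entered through their P14 values, while 30 genes had a P3 mean at or above it. Age cannot be told apart from the number of animals in a pool, nor from RNA quality where that moved with it: the 3' minus 5' difference of the Gapdh control sets was 1.21 to 1.41 at P3 and 1.06 to 1.11 at P14.

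**Figure D1:**
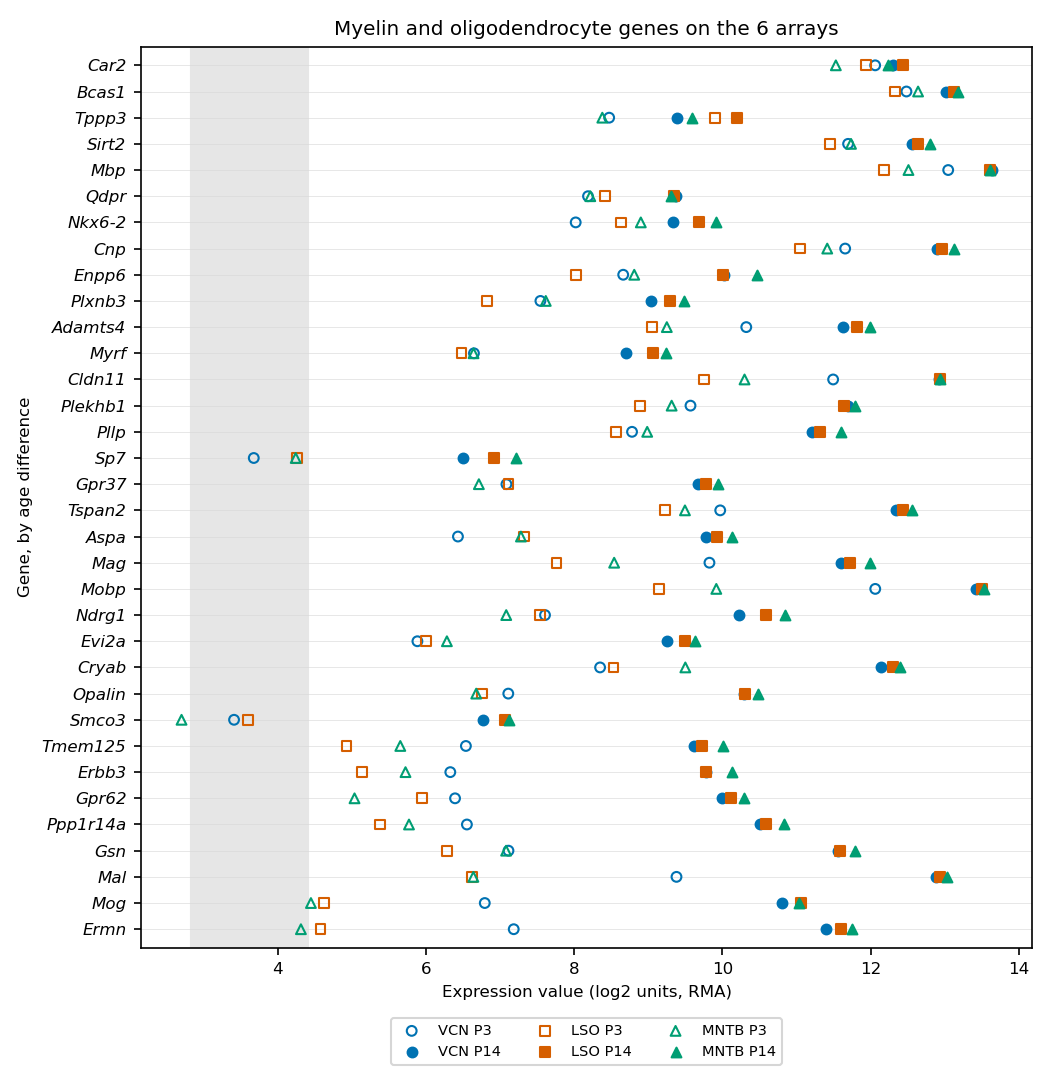
Expression value (log2 units, RMA) of the 34 genes on each of the 6 arrays, 1 row per gene, ordered from the smallest age difference at the top to the largest at the bottom; open symbols are P3, filled symbols P14, circles VCN, squares LSO and triangles MNTB. The grey band is the range of 3 control probe sets for an RNA that was not added, 2.84 to 4.42, and a reader should see the P14 symbols bunched together while the P3 symbols spread, with VCN to the right for the genes at the bottom, Tmem125, Erbb3, Mal, Mog and Ermn among them.

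The genes fell along a range from early to late, which was described with no test because the age difference itself sorts them. Early was set as a P3 mean of at least 50% of the P14 mean on the linear scale, a difference of at most 1 log2 unit, and late as a difference of over 3. By that measure 3 genes were early, 16 intermediate and 15 late, while 0.424% of all genes tested had a difference of over 3. Among the late genes Smco3 lay at the absent-RNA controls at P3 and had only a bound, of at least 2.57, and with values floored 14 genes were late. If early meant instead a P3 mean above that of 75% of all genes, 10 genes were early, Mobp among them. The early genes were Car2, a carbonic anhydrase of oligodendrocytes and other glia, Bcas1, a marker of oligodendrocytes that have just begun to myelinate, and Tppp3, a protein that binds tubulin. Sirt2 at 1.03, Mbp at 1.04 and Qdpr at 1.07 lay just outside the early class. For Qdpr a brighter probe set, named _x_at and so set aside, gave 0.33, which is inside that class. Mag at 3.06, Mobp at 3.11 and Ndrg1 at 3.15 lay just inside the late class, and Aspa at 2.93 and Tspan2 at 2.88 just outside it. Over their probe sets above the filter Mobp gave 3.11 to 4.92, Ndrg1 2.80 to 3.15 and Tspan2 2.88 to 3.19. In Mobp and Tspan2 the smallest difference came from the brightest probe set, and in Ndrg1 it did not. How far brightness set these classes was not tested.

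Bcas1 stood at 12.48, 12.32 and 12.64 in VCN, LSO and MNTB at P3, and at 13.02, 13.12 and 13.18 at P14. All 3 nuclei therefore already held most of the P14 signal at P3, between 57.5% and 68.8% of it, and the age difference was 0.63 ± 0.07 (SE, 3 nuclei; limma adjusted p = 0.00154). Car2 was at 12.06, 11.94 and 11.53 in VCN, LSO and MNTB at P3 and at 12.30, 12.44 and 12.23 at P14. Its ages did not overlap, but the gap between them was small, and its call was lost when either MNTB array was left out (limma adjusted p = 0.0644 without MNTB at P3, 0.0635 without MNTB at P14, against 0.0104 with all arrays). Tppp3 read 8.47, 9.90 and 8.38 at P3 and 9.39, 10.19 and 9.58 at P14 in the same order of nuclei. Its LSO array at P3 was above the VCN and MNTB arrays at P14, so the ages overlapped, although within each nucleus P14 was higher. The difference of 0.81 ± 0.18 passed the test with all arrays (limma adjusted p = 0.0155) and did not pass without either MNTB array (adjusted p = 0.0713 and 0.0731).

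At the other end stood Ermn, Mog and Mal. Over the 15 late genes the median P3 signal was 9.14% of the P14 signal in VCN, 4.86% in LSO and 4.70% in MNTB. Over the 3 early genes the same medians were 68.8%, 70.6% and 61.7%. At P3 the VCN value of the late genes lay a median of 0.90 log2 units above the mean of LSO and MNTB, against 0.21 for the intermediate and 0.00 for the early genes. VCN was the highest nucleus at P3 for 12 of 15 late, 7 of 16 intermediate and 1 of 3 early genes. These figures are a description, because the same P3 arrays enter the sorting.

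**Figure D2:**
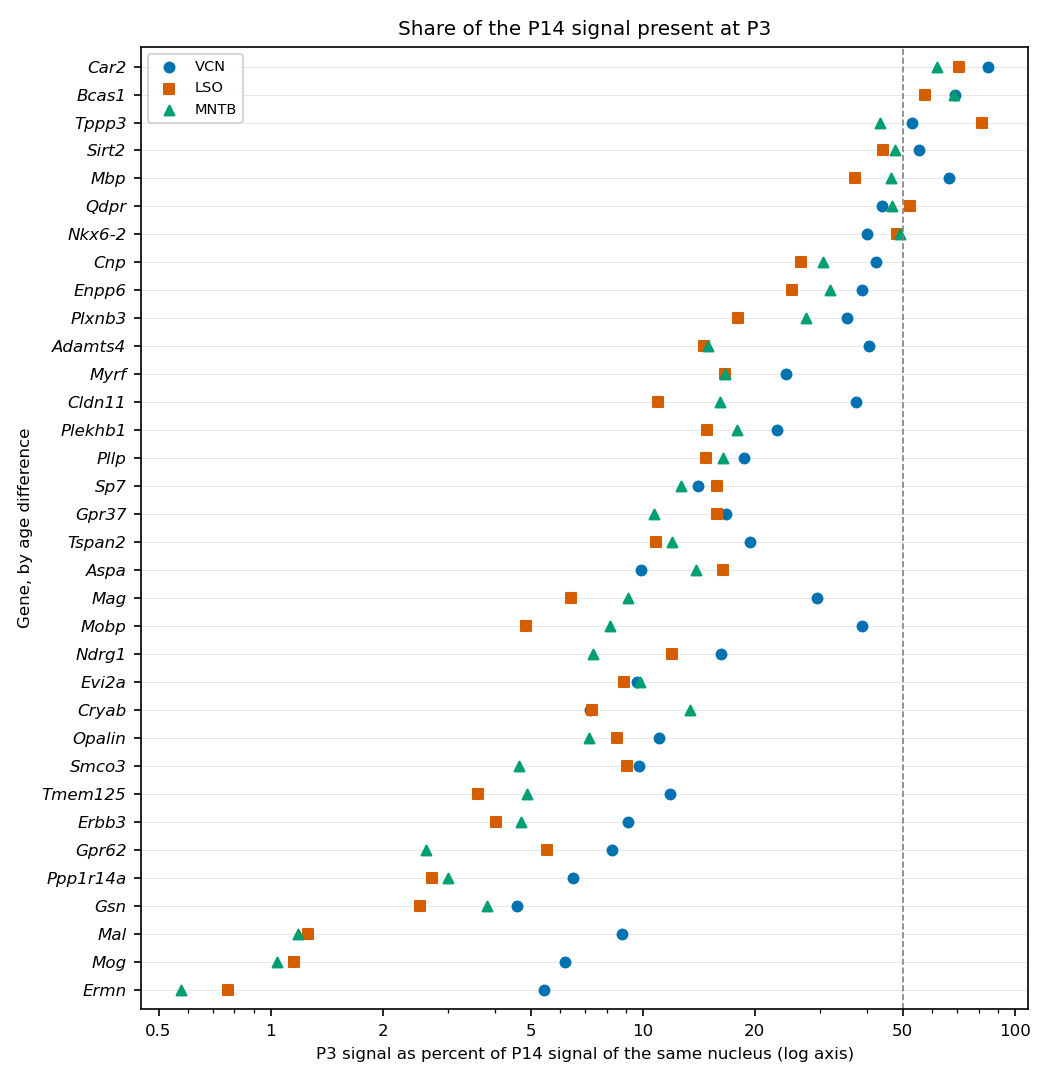
P3 signal as percent of the P14 signal of the same nucleus (linear signal, log axis) for the 34 genes, ordered as in the plot of values by array; circles are VCN, squares LSO, triangles MNTB, and the dashed line marks 50%. The symbols of a gene lie close together at the top (Bcas1, 57.5% to 68.8%) and separate at the bottom (Ermn, 5.42% in VCN against 0.77% in LSO and, from a P3 value below the highest absent-RNA control, at most 0.618% in MNTB).

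Among the regulators, Myrf, the transcription factor that switches on myelin genes when an oligodendrocyte matures, read 6.65, 6.48 and 6.64 in VCN, LSO and MNTB at P3. At P14 it read 8.70, 9.06 and 9.23, a rise of 2.41 ± 0.15 (limma adjusted p = 0.000416). Its P3 values lay within 0.17 log2 units of each other, so VCN was not ahead for Myrf, and at P14 VCN was the lowest. Nkx6-2, a homeodomain factor of the oligodendrocyte lineage, rose by 1.13 ± 0.11 (limma adjusted p = 0.00101), with VCN the lowest nucleus at both ages (8.02 against 8.63 and 8.90 at P3, 9.34 against 9.69 and 9.92 at P14). Sp7, a zinc-finger factor best known from bone, was at 3.68, 4.27 and 4.24 at P3, all within the range of the control sets for an absent RNA. At P14 it read 6.50, 6.92 and 7.22, which puts its mean 5.53-fold above the highest of those controls, a lower bound on its rise.

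Promoter windows were looked up because these genes moved together and Myrf is a known activator of many of them. RefSeq windows on the GRCm38.p6 build, from 250 bases before to 50 after a start site, were found for 22 of the 36 genes (28 windows). The letters CTGGCAC or CTGGTAC, the core that Myrf is known to bind, were searched on both strands and occurred for 6 of the 22 genes (27.3%), against 8.10% of the 27025 genes in the table. By window it was 7 of 28, against 7.10% of 32851. The letters ACAAAG or ACAATG, a core shared by Sox factors, occurred for 10 of the 22 genes (45.5%), against 31.7% of all genes. No other comparison was made with these shares, and a match is a run of letters, not a shown binding site. Printed first are the whole windows of Mal, Mog and Ermn, whose age difference in VCN passed a test against that of the other nuclei, and of Mobp, which held the Sox letters 6 times. Capitals mark Myrf letters in Mog and Sox letters in Ermn and Mobp, on either strand; the window of Mal (chr2:127656646-127656945, minus strand) held neither. Those of Mog and Ermn are chr17:37023349-37023648 and chr2:58052815-58053114, both on the minus strand, and that of Mobp is chr9:120149492-120149791 on the plus strand.
Mal: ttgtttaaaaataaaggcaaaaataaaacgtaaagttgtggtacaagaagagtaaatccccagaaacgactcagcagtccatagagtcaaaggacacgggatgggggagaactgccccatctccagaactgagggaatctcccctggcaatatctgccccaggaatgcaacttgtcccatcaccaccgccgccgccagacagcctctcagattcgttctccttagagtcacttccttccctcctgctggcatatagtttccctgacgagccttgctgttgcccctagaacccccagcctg
Mog: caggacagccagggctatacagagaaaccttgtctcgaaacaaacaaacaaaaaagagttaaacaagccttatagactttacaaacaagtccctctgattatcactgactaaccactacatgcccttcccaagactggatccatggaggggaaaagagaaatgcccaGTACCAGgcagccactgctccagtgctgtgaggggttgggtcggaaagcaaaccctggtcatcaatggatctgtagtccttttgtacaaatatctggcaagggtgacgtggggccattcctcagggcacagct
Ermn: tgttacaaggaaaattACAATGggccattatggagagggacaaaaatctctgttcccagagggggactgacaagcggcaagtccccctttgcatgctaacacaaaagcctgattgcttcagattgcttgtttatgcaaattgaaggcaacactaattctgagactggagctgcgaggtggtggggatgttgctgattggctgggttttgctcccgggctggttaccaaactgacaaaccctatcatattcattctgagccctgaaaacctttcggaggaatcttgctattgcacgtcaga
Mobp: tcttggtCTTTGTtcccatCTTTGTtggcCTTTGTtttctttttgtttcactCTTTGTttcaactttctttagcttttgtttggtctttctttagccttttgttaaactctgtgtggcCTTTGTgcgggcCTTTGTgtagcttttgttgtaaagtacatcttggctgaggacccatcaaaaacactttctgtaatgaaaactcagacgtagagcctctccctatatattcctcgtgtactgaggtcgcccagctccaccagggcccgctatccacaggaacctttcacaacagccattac

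For the other genes with Myrf letters only the stretch around them is printed, with up to 20 bases on each side. They show which orientation the letters have: CTGGCAC reads forward in Cnp, Gpr62 and Mag and in reverse, as GTGCCAG, in Opalin and Tmem125. The stretches are chr11:100574838-100574884 (plus strand) for Cnp, chr9:106466033-106466079 (minus) for Gpr62, chr7:30914905-30914951 (minus) for Mag, chr19:41077064-41077097 (minus) for Opalin and chr4:118543700-118543746 (minus) for Tmem125. In Opalin and Tmem125 the letters begin after or at the start site, 37 bases and 1 base from it, and in Cnp, Gpr62 and Mog they begin 81, 74 and 83 bases before it. The Mag stretch lies in 2 overlapping windows of that gene.
Cnp: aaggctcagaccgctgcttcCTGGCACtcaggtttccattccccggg
Gpr62: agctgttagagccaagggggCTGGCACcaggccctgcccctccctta
Mag: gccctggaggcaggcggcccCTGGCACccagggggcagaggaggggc
Opalin: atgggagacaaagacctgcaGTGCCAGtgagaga
Tmem125: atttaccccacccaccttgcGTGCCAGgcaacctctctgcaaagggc
The 6 genes with Myrf letters spanned most of the range of age differences, from 1.62 in Cnp through 3.06 in Mag, 3.51 in Opalin, 4.07 in Tmem125 and 4.34 in Gpr62 to 5.68 in Mog.

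The 7 genes of compact myelin and its membranes rose by a median of 2.60 log2 units. Mbp, the basic protein that holds the inner membrane faces together, was already at 13.05, 12.18 and 12.51 in VCN, LSO and MNTB at P3 and reached 13.63, 13.61 and 13.62 at P14. That is a difference of 1.04 ± 0.15 (limma adjusted p = 0.00362), and the 3 nuclei ended within 0.02 log2 units of each other. The 8 probe sets that name Mbp gave age differences from 0.65 to 2.12, so its place next to the early class rests on the probe set used. Mobp, a second basic protein of compact myelin, read 12.06, 9.15 and 9.92 at P3 and 13.42, 13.51 and 13.54 at P14. On this probe set VCN held 38.9% of its P14 signal at P3, against 4.86% in LSO and 8.15% in MNTB. The 5 probe sets that name Mobp gave age differences from 3.11 to 4.92, the smallest on the brightest one, used here. In VCN the age difference was 1.36 on that one and 2.26 to 3.08 on the others, so these percentages rest on the probe set used. Mal, a proteolipid that carries cargo to the myelin membrane, was at 9.38 in VCN at P3 and at 6.63 and 6.64 in LSO and MNTB, and at 12.88, 12.93 and 13.04 at P14.

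Cldn11, the claudin of the tight junctions between myelin layers, stood at 11.49, 9.75 and 10.30 in VCN, LSO and MNTB at P3, and at 12.92, 12.93 and 12.93 at P14. The 3 nuclei were spread over 1.74 log2 units at P3 and over 0.02 at P14, the smallest P14 spread of the 34 genes. Cldn11 had 1 probe set, and the highest value on any array was 14.37. Whether brightness narrowed the P14 spread was not tested. The remaining members of this group were more even at P3. Tspan2, a tetraspanin that appears early in differentiation, rose by 2.88 ± 0.16, Pllp, a plasmolipin of the sheath, by 2.60 ± 0.10, and Plekhb1, a pleckstrin-homology protein, by 2.45 ± 0.13 (limma adjusted p = 0.000389, 0.000243 and 0.000378). Their VCN values at P3 lay 0.61, 0.01 and 0.47 above the mean of LSO and MNTB.

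The genes of the sheath's inner tongue and outer surface covered the widest range. Cnp, an enzyme that keeps cytoplasmic channels open in myelin, rose by 1.62 ± 0.13 (limma adjusted p = 0.000642), and Sirt2, a deacetylase of the same compartment, by 1.03 ± 0.08 (adjusted p = 0.000577). On the probe sets used, the P3 arrays of both genes lay between 11.04 and 11.74. The 3 probe sets that name Cnp gave age differences from 1.04 to 2.25. The smallest came from the brightest, which is named _x_at and was set aside. Mag, the adhesion molecule facing the axon, read 9.83, 7.76 and 8.54 in VCN, LSO and MNTB at P3. It reached 11.59 and 11.73 in VCN and LSO at P14, and MNTB ended 3.46 above its own P3 value. Mog, a glycoprotein of the outermost surface and a late marker of maturation, read 6.79, 4.62 and 4.45 in VCN, LSO and MNTB at P3, and 10.81, 11.06 and 11.04 at P14. In LSO and MNTB its P3 values were close to the highest control for an absent RNA (4.42), whereas the VCN value was 2.26 above their mean. Ermn, a cytoskeletal protein of the inner tongue, showed the same arrangement, with 7.19, 4.58 and 4.31 at P3 and 11.39, 11.60 and 11.75 at P14. Its MNTB array at P3 was below that control. The rise was 6.22 ± 0.60 for Ermn, 5.68 ± 0.49 for Mog and 3.06 ± 0.39 for Mag (limma adjusted p = 0.00103, 0.000807 and 0.00251), with larger standard errors than Cnp and Sirt2, as the 3 nuclei moved by unequal amounts. Opalin, a glycoprotein specific to oligodendrocytes, was more even, at 7.11, 6.75 and 6.68 at P3 and 10.29, 10.31 and 10.48 at P14.

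Receptors and signalling proteins rose by a median of 2.82 log2 units. Erbb3, a receptor for neuregulins, went from 6.33, 5.14 and 5.73 in VCN, LSO and MNTB to 9.78, 9.77 and 10.14 (4.17 ± 0.24, limma adjusted p = 0.000389). The orphan receptor Gpr62 rose by 4.34 ± 0.30 and Gpr37, a receptor that restrains myelination, by 2.82 ± 0.15 (adjusted p = 0.000477 and 0.000378). The 2 probe sets of Gpr62 disagreed, with age differences of 4.34 and -0.21. Ppp1r14a, an inhibitor of myosin phosphatase, read 6.55, 5.38 and 5.77 at P3 and 10.50, 10.59 and 10.83 at P14, so VCN was ahead at P3 by 0.98 and behind at P14. Adamts4, a protease found in mature oligodendrocytes, showed a similar lead on a smaller rise, with 10.32, 9.05 and 9.25 at P3 and 11.63, 11.82 and 11.99 at P14. Plxnb3, a semaphorin receptor, rose by 1.94 ± 0.20 (limma adjusted p = 0.00117).

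The secreted and metabolic genes changed least, with a median of 1.37 over the 4 that had a value. Enpp6, a choline phosphodiesterase that marks newly forming oligodendrocytes, read 8.66, 8.02 and 8.81 at P3 and 10.02, 10.01 and 10.46 at P14. Qdpr, which regenerates tetrahydrobiopterin, rose by 1.07 ± 0.11 (limma adjusted p = 0.0011) with no P3 lead of VCN. Its _x_at probe set gave an age difference of 0.33. Aspa, which splits N-acetylaspartate to feed lipid synthesis, was lower in VCN than in the other nuclei at P3. It read 6.43, 7.32 and 7.28 in VCN, LSO and MNTB at P3 and 9.77, 9.92 and 10.13 at P14. VCN was thus lowest at both ages, 0.87 below the mean of the other nuclei at P3, which was the furthest any of the 34 genes fell below 0.

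Among cytoskeletal and stress proteins, Gsn, which severs actin filaments, rose by 4.82 ± 0.17 (limma adjusted p = 0.000243), although its 6 probe sets ranged from -0.26 to 4.82. Cryab, a small heat-shock protein, went from 8.35, 8.53 and 9.50 in VCN, LSO and MNTB to 12.14, 12.31 and 12.40. MNTB was ahead here at P3 instead of VCN. Ndrg1, a stress-response protein of myelinating cells, rose by 3.15 ± 0.21 (limma adjusted p = 0.000456). Of the 3 genes with little known function, Tmem125 read 6.54, 4.93 and 5.66 at P3 and 9.62, 9.72 and 10.01 at P14, and Evi2a read 5.89, 6.00 and 6.28 and then 9.26, 9.50 and 9.63. The nuclei were spread over 0.40 log2 units for Evi2a at P3 and over 0.37 at P14, with VCN lowest and MNTB highest at both ages. Its second probe set gave an age difference of -0.64 against 3.40. Smco3 was within or below the range of the absent-RNA controls on all P3 arrays (3.41, 3.61 and 2.70). At P14 it read 6.76, 7.06 and 7.13, with a mean 5.93-fold above the highest of those controls, a lower bound on its rise.

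How far VCN was ahead at P3 was measured as its value minus the mean of LSO and MNTB. The median over the 34 genes was 0.36 log2 units, against -0.04 over all genes tested, and the range was -0.87 for Aspa to 2.75 for Mal. VCN was the highest nucleus at P3 for 20 of the 34 genes (27.6% of all genes tested), and LSO the lowest for 19 (26.7%). At P14 the order had turned: VCN was the lowest nucleus for 28 of 34 (37.3% of all genes tested), MNTB the highest for 28 (31.0%), and the median of the same difference was -0.21. The distances at P14 were small, from -0.57 to 0.04. The spread over the 3 nuclei was larger at P3 than at P14 for 31 of 34 genes (55.8% of all genes tested), with Myrf, Sp7 and Ndrg1 as the exceptions, and its median was 0.85 at P3 and 0.31 at P14. All these counts share the same 6 arrays, 1 for each nucleus and age, so the genes are not repeats of the order.

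Leads of at least 1 log2 unit at P3, found in 1.07% of all genes tested, belonged to 8 genes: Mal (2.75), Ermn (2.74), Mobp (2.53), Mog (2.26), Mag (1.67), Cldn11 (1.47), Tmem125 (1.25) and Adamts4 (1.17). At P14 the count was 0 of 34 (1.33% of all genes tested). Other probe sets of the same genes gave leads of 2.03 to 2.89 for Mobp, 1.78 to 2.75 for Mal, 1.12 to 2.74 for Ermn and -0.10 to 1.25 for Tmem125, so the lead of Tmem125 was not seen by both of its probe sets. Taken in pairs at P3, the median difference over the 34 genes was 0.53 for VCN minus LSO, 0.40 for VCN minus MNTB and 0.27 for MNTB minus LSO, and MNTB was above LSO for 22 of 34 (46.3% of all genes tested).

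**Figure D3:**
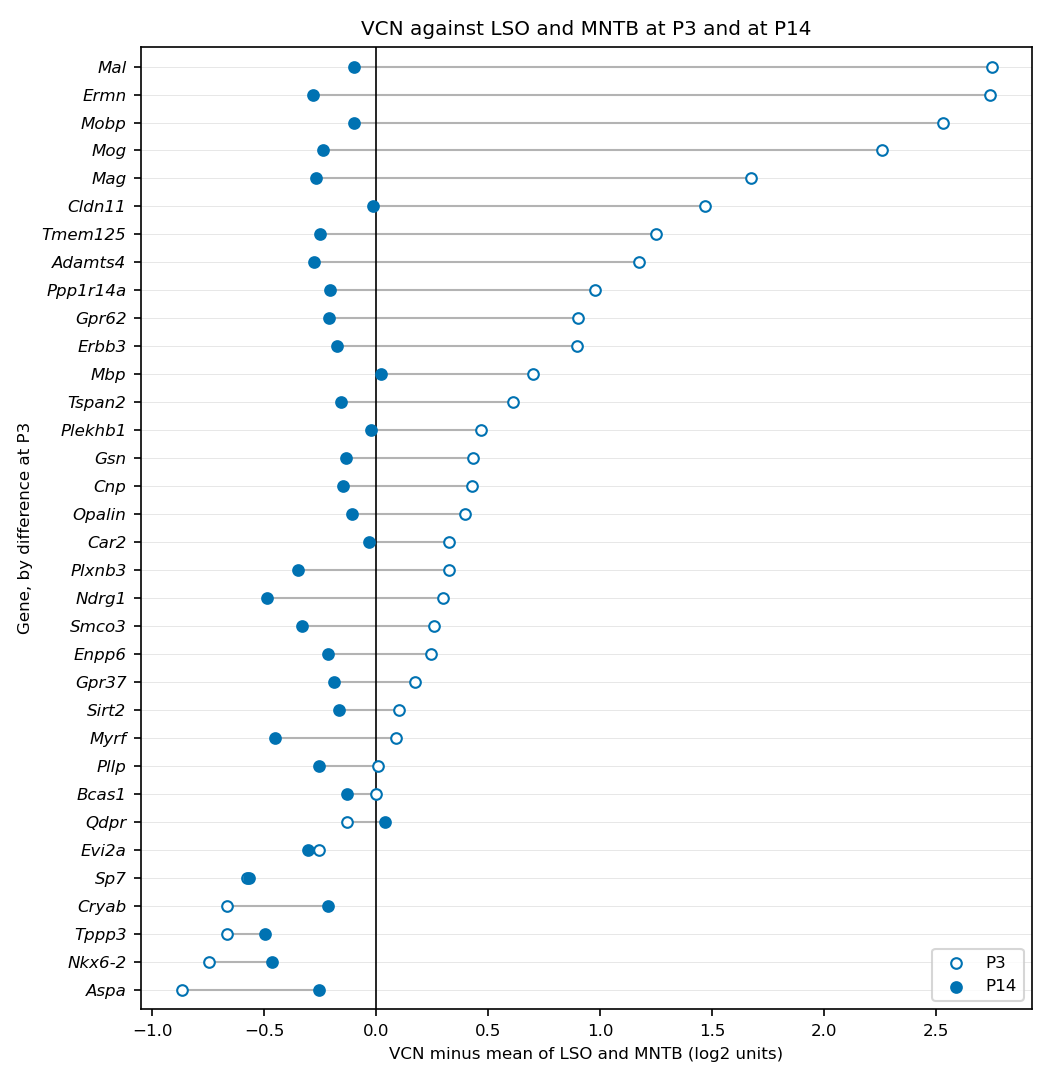
VCN minus the mean of LSO and MNTB (log2 units) for the 34 genes, 1 row per gene ordered by the P3 value; open circles are P3, filled circles P14, and the line joins the ages of 1 gene. The P3 circles reach from -0.87 (Aspa) to 2.75 (Mal), while the P14 circles stay between -0.57 and 0.04.

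The order of the nuclei was tested in several ways. Over both ages together no gene of the 32 tested passed for VCN against the mean of LSO and MNTB, against 0.641% of all genes tested. At an unadjusted p under 0.05 (limma) 0 were higher and 3 lower, against 10.1% of all genes in either direction. This count turned on the VCN array at P14. Without it VCN had a single array, at P3, and the spread came from the age differences of LSO and MNTB alone. This fit thus only returned the P3 leads already described, such as 2.75 for Mal and 2.74 for Ermn. Its calls are not given, since they add no support to those leads. For MNTB against LSO no gene of the 32 passed (limma; 0.162% of all genes tested), and 2 were higher and 2 lower at an unadjusted p under 0.05 (6.80% of all genes).

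The last of these tests asked whether the age difference of VCN was unlike that of LSO and MNTB. Mal, Ermn and Mog passed, with smaller age differences in VCN, where 0.0926% of all genes tested passed in that direction. Ermn and Mog are the genes that passed the filter through their P14 values. Mal had an age difference of 3.50 in VCN, against 6.31 in LSO and 6.40 in MNTB, which put VCN -2.85 ± 0.17 from the mean of the others (limma adjusted p = 0.0132). For Ermn it was 4.21 in VCN and 7.02 in LSO, and at least 7.34 in MNTB, whose P3 value lay below the highest absent-RNA control. The Ermn term was -3.02 ± 0.26 on the deposited values (limma adjusted p = 0.0381) and -2.97 with MNTB at that bound. For Mog the age differences were 4.01, 6.44 and 6.59 (-2.50 ± 0.23, adjusted p = 0.0391). The second probe sets of Mal and Ermn gave smaller terms, -1.80 and -1.58, and Mog had 1 probe set. Adamts4, Mobp and Mag were just outside the threshold (limma adjusted p = 0.0528, 0.0532 and 0.0633), and the genes at an unadjusted p under 0.05 were 16 with a smaller and 1 with a larger age difference in VCN (10.6% of all genes tested, in either direction). This test has 1 residual degree of freedom, taken from LSO against MNTB, since VCN has 1 array per age. In 1 simulated run per contrast, at a threshold of 0.05, 28 of 156 calls of this term were false. False calls were 20 of 218 for age, 17 of 214 for VCN against the others and 14 of 208 for MNTB against LSO. Under other settings the term for VCN gave between 0 and 7 of these genes, so the per-array values above carry the result.

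Other genes of the same pathway, which were listed apart from the 36, rose too. Like the 36, they were chosen with earlier results of these data known. Of 26 further myelin genes 23 had a value, and all 23 rose (limma adjusted p under 0.05), by a median of 2.81. Gjb1, Hapln2, Ninj2 and Klk6 had a P3 mean below the filter and entered through their P14 values. Gjb1 lay at or below the highest absent-RNA control on all P3 arrays and had only a bound, of at least 3.65. Of all genes tested, 23.4% rose. Klk6, a protease of oligodendrocytes, rose by 4.12 ± 0.23, Fa2h, which hydroxylates fatty acids of myelin lipids, by 3.43 ± 0.18, and Ugt8a, which makes galactocerebroside, by 3.12 ± 0.27 (limma adjusted p = 0.000382, 0.000378 and 0.000825). Cd9, a tetraspanin, had the smallest rise, 1.35 ± 0.16 (adjusted p = 0.00181). VCN was ahead at P3 by a median of 0.18, against -0.04 over all genes tested. Leads of at least 1 log2 unit, found in 1.07% of all genes tested, belonged to 4 genes. These were the lysophospholipid receptors Lpar1 (1.33) and S1pr5 (1.61), Ugt8a (1.18) and the lipocalin Apod (1.22).

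Genes of earlier stages of the lineage are given for comparison. Of 7 oligodendrocyte precursor genes 1 rose with age, Matn4, whose call was lost in 7 of 14 other settings (limma adjusted p up to 0.111), and 3 fell, against 23.4% and 17.7% of all genes tested. Pdgfra, the receptor that keeps precursors dividing, went from 9.90, 10.03 and 10.31 in VCN, LSO and MNTB to 9.18, 9.64 and 9.66 (-0.59 ± 0.10, limma adjusted p = 0.00667), Ptprz1 fell by 0.95 ± 0.12 (adjusted p = 0.00242) and Pcdh15 by 0.66 ± 0.14 (adjusted p = 0.0125), a call that held in 12 of 14 other settings. VCN was the highest nucleus at P3 for 0 of the 7 genes. Of 7 genes of newly formed oligodendrocytes 5 rose, Rras2 most (1.82 ± 0.19, limma adjusted p = 0.00133). The call of Cemip2 held in 11 of 15 other settings and that of 1 further gene in 9 of 15. Gpr17, the receptor that marks the premyelinating state, read 9.52, 9.56 and 10.32 at P3 and 10.79, 11.19 and 11.28 at P14, with no lead of VCN. Of this list 1 gene, Cemip2, had a VCN lead of at least 1 log2 unit at P3 (1.43).

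Markers of other cells are given beside these results, and their part in them was not tested. The choroid plexus list had a mean over 8 genes of 5.51, 4.83 and 4.66 in VCN, LSO and MNTB at P3, and of 6.33, 4.63 and 4.70 at P14. Ttr, its defining marker, read 12.58 in VCN at P14 and between 6.61 and 6.93 on the other arrays, while Otx2, named after its values were seen, read 9.34 in VCN at P3, 6.52 in VCN at P14 and 3.04 to 3.34 elsewhere. Without Otx2, a comparison added after the data were seen, the P3 means were 4.96, 5.09 and 4.89, so the P3 difference of the list rested on that gene, while at P14 VCN stayed above the others (6.31 against 4.81 and 4.92, highest for 6 of 7 genes). The microglia list was lowest in VCN at P3 for 10 of 10 genes, with a mean of 7.43 against 7.81 and 8.03. The share of all genes with that order at P3 was not taken. At P14 VCN was lowest for 3 of 10 (37.3% of all genes tested). With age 3 of the 10 rose and 0 fell. Schwann cell genes, relevant because the cochlear nerve enters VCN, had means of 6.23, 6.35 and 5.89 at P3 and 6.10, 6.23 and 6.15 at P14 over 7 genes, with no lead of VCN over LSO at either age. Of the 3 tested genes of that list Pmp22 rose and Drp2 fell. Astrocyte genes rose in 6 of 10 and fell in 2, endothelial genes rose in 7 of 8 and meningeal genes in 5 of 5. Of all genes tested, 23.4% rose and 17.7% fell. Neuronal genes, which check that the tissue was neuronal, had means of 11.22 to 11.99, and 4 of 8 fell while 1 rose.

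**Figure D4:**
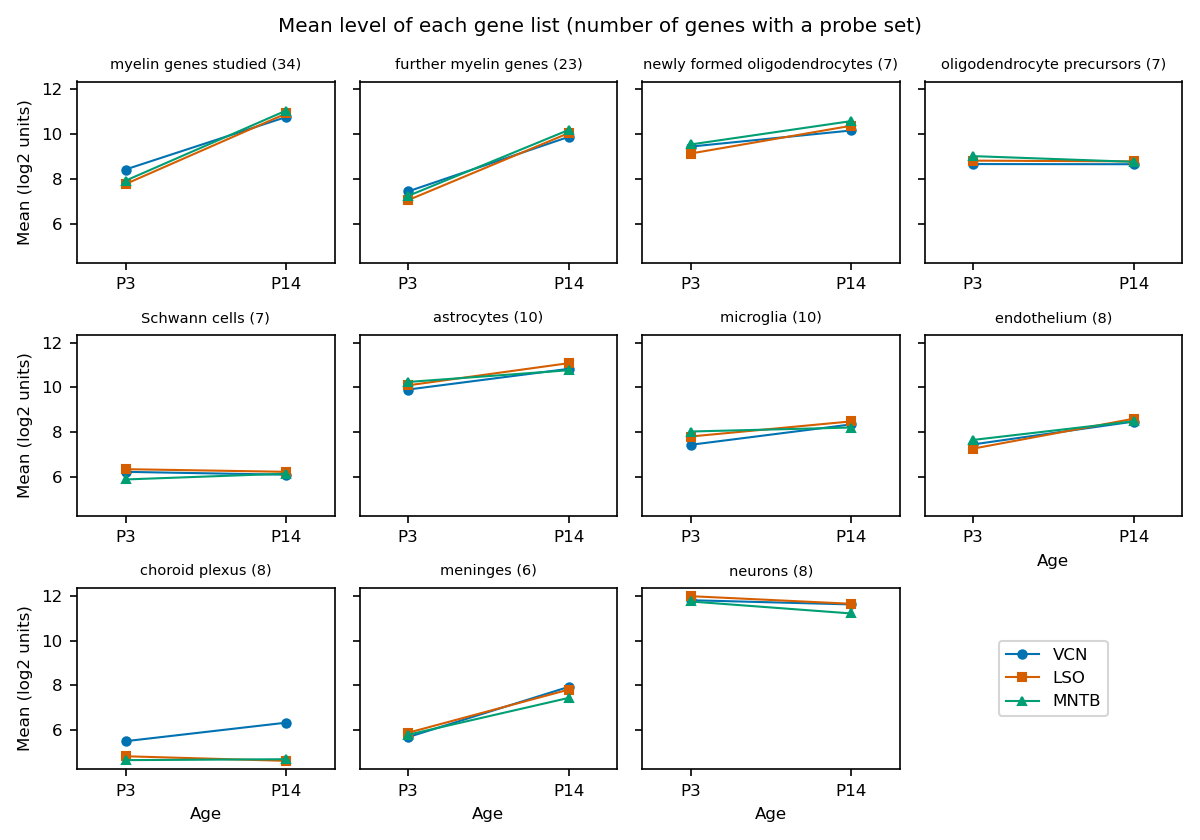
Mean expression value (log2 units) of each gene list at P3 and P14, 1 panel per list with the number of genes in brackets; circles are VCN, squares LSO and triangles MNTB, 1 array each, and lines join the ages of a nucleus. In the panel of the 34 myelin genes VCN is highest at P3 (8.42 against 7.77 and 7.92) and lowest at P14 (10.77 against 10.93 and 11.06), and in the choroid plexus panel VCN stands above the others at both ages, at P3 through Otx2 alone (4.96 against 5.09 and 4.89 without it).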

How the data were processed

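RNA of 6 pools was hybridised to Affymetrix mouse whole-genome arrays after DNase treatment and amplification of 20 ng of RNA, per the labels' protocols. The deposited values are log2 expression values made by the authors with RMA, per the submitters' processing notes; they name no version, and scan dates or batches were not used here. They ran from 1.84 to 14.37, with array medians of 6.27 to 6.31. The number of arrays limits the precision.

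Of 45101 probe sets, 64 were controls, 34945 named 1 gene in the platform annotation, 932 several and 9160 none, and 34741 matched RefSeq by gene identifier with 0 symbols changed. Each gene was read from its probe set of highest mean; probe sets named _x_at, which can cross-hybridise, were used only where a gene had no other. Genes with a mean of 5.57 or more, the 40th percentile over probe sets, were tested with limma 3.58.1 in R 4.3.3 (age plus nucleus, intensity trend, 2 residual degrees of freedom, two-sided, Benjamini-Hochberg over 12958 genes, threshold 0.05). A further term for age within VCN left 1 residual degree of freedom. Standard errors and adjusted p-values come from these fits. The labels leave unsaid if 1 set of animals gave all nuclei of an age, and p-values measure only the spread between these arrays. Percentages of signal are ratios of values taken off the log2 scale. Tested on a single simulated run per contrast, both fits called more false genes than the threshold allows, most in the term for age within VCN. All 36 genes could be named, as could the further myelin genes and up to 4 genes of every other list (largest changes and defining markers). The genes and lists were chosen with earlier results of these data known. Alternatives covered the choice of probe set, filter, scaling, floor, variance trend, nucleus term and each array left out.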

Additional observations from a re-analysis of the deposited data

Results flagged for a closer look

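Mal, Ermn and Mog were singled out because the age difference in VCN was unlike that in LSO and MNTB in a test of that difference itself (limma, term for age within VCN). That test has 1 residual degree of freedom, taken from LSO against MNTB, and called too many false genes on simulated data. Ermn and Mog passed the filter through their P14 values. None of these genes was called with no filter or with no intensity trend. The term was -2.85 log2 units for Mal (3.50 in VCN, 6.31 in LSO, 6.40 in MNTB; adjusted p = 0.0132), -3.02 for Ermn (4.21, 7.02 and at least 7.34; adjusted p = 0.0381; -2.97 at that bound) and -2.50 for Mog (4.01, 6.44 and 6.59; adjusted p = 0.0391). In all 3 genes the P14 arrays lay within 0.36 log2 units of each other, so the difference lay mostly in the P3 arrays, of which there was 1 per nucleus. The second probe sets gave -1.80 for Mal and -1.58 for Ermn. Of the choroid plexus markers Otx2 was higher in VCN at P3 (9.34 against 3.05 and 3.04), the mean of the other 7 was not (4.96 against 5.09 and 4.89), and their part in the difference was not tested.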

How the results depend on the processing

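No alternative reversed the sign of a median, of a gene's age difference, of a VCN age term near the threshold or of a P3 lead of at least 1 log2 unit. For VCN against the other nuclei over both ages only calls were counted, so the direction of each gene was not followed. Single probe sets did differ in sign, as given above for Gpr62, Gsn, Evi2a and Tmem125. The 32 age calls became 34 with no filter or with a floor, and 31 with no nucleus term (no replicate block), where Tppp3 was lost (limma adjusted p = 0.173); leaving out each array gave 30 to 32. Over all genes, the 5317 age calls fell to 3142 and 3176 without MNTB at P3 or P14. The median age difference was 2.52 when probe sets of a gene were summarised by their median, and 2.66 to 2.92 with an array left out. The median P3 lead of VCN was 0.26 from the median of probe sets and 0.40 to 0.53 with LSO or MNTB left out at P3. For VCN against the other nuclei over both ages, leaving out an array gave 0 calls except 8 without VCN at P14. The smaller age difference of VCN was called for 6 genes with _x_at names kept, 5 with the median of probe sets, 0 with no filter, 5 with the filter at the 60th percentile, 7 with arrays centred, 6 with quantile normalization repeated, 2 with a floor and 0 with no intensity trend (Mal, Ermn and Mog at adjusted p = 0.079, 0.0854 and 0.0848), against 3; over all genes the same settings gave 0 to 84 calls. This term could not be fitted with an array left out. Early genes numbered 5 with quantile normalization repeated, 5 in VCN alone, and 10 when early meant a P3 mean above that of 75% of all genes; leaving out a nucleus gave 3 to 4 early and 12 to 16 late. Signals at or below the absent-RNA controls at P3 (Sp7, Smco3, Ermn in MNTB) give bounds only. The same holds for Gjb1, and for Hapln2 and Ninj2 in some nuclei, among the further myelin genes. The choroid plexus means without Otx2 and the Ermn term at its bound were chosen after seeing the data.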
